A study of Mus musculus with 15 samples.

Results

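The Arp2/3 complex comprised 9 genes here, Actr2, Actr3, Arpc1a, Arpc1b, Arpc2, Arpc3, Arpc4, Arpc5 and Arpc5l, of the 45706 genes listed for each library. They were chosen by symbol as the widely expressed subunits of the complex, a rule that uses no measured value although results of these data were known, and all 9 were found and passed the filter on low counts in both culture stages. The complex starts a new actin filament as a branch on the side of an existing filament. Its actin-related proteins ARP2 and ARP3 (Actr2, Actr3) imitate the end of a filament, ARPC2 and ARPC4 form the scaffold that grips the mother filament, ARPC1 takes part in docking activators, ARPC3 is attached to ARP3, and ARPC5 tethers ARP2. Mammals have a pair of paralogs for ARPC1 (ARPC1A and ARPC1B) and for ARPC5 (ARPC5 and ARPC5L), and 1 complex holds 1 of each pair. In oligodendrocyte cultures and in mice, Arp2/3-driven actin assembly is known for process outgrowth and the start of axon ensheathment, before actin is disassembled during wrapping.

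The libraries are polyA RNA of primary mouse cultures in which the serum response factor gene Srf, a transcription factor of actin cytoskeleton genes, could be removed. All cultures began as oligodendrocyte precursor cells (OPCs) purified from brain by immunopanning, which catches cells on antibody-coated dishes, and all came from mice with both Srf alleles floxed, so the controls carried the floxed alleles too. There were 3 SRF-KO OPC libraries (AAV-DJ virus with eGFP-tagged Cre under a CMV promoter) and 4 control OPC libraries (the same virus with a deleted Cre), frozen 48 hours after infection. There were 4 SRF-KO OL libraries (lentivirus with Cre, an IRES and GFP) and 4 control OL libraries (GFP lentivirus), given virus on day 6 and frozen on day 3 of differentiation towards oligodendrocytes (OLs). The labels name no sorting of infected cells and no Cre-treated culture without floxed alleles, so effects of Cre itself and of Srf loss cannot be told apart. In these bulk samples, fewer cells of a type and less RNA per cell cannot be told apart either.

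Total expected counts were 9074812 to 15125229 in SRF-KO OPC libraries and 8964310 to 16026511 in control OPC libraries, and 4303739 to 11721394 in SRF-KO OL libraries and 7188698 to 13139258 in control OL libraries. Srf itself averaged 0.211 ± 0.0127 CPM (counts relative to library total, scaled by edgeR's trimmed mean of M values, TMM) in SRF-KO OPCs (SD, n = 3), against 7.87 ± 1.71 CPM in control OPCs (SD, n = 4). In OLs Srf averaged 3.04 ± 0.959 CPM in the knockouts and 8.29 ± 0.973 CPM in the controls (SD, n = 4 each), and neither stage's groups overlapped. The 8 OPC markers summed to 4710 to 6180 CPM in SRF-KO OPCs and 6370 to 6720 CPM in control OPCs, and the 9 oligodendrocyte markers to 13900 to 19300 CPM in SRF-KO OLs and 19700 to 37400 CPM in control OLs. The 8 astrocyte markers, led in OLs by Gfap, summed to 1400 to 1510 CPM in SRF-KO OPCs against 1140 to 1250 CPM in control OPCs, and to 8940 to 14000 CPM in SRF-KO OLs against 17100 to 34600 CPM in control OLs. Of the 10 microglia markers, 8 to 9 were at 0 in SRF-KO OPC libraries and 8 to 10 in control OPC libraries, and their sum stayed between 12.9 and 17.6 CPM in SRF-KO OLs and between 10.4 and 16 CPM in control OLs. The OPC, oligodendrocyte and astrocyte sums did not overlap between SRF-KO and control in these comparisons, whereas the microglia sums overlapped in OLs. In OLs Gfap, at 7490 CPM on average in the knockouts and 18700 CPM in the controls, was the only astrocyte marker without overlap. The OPC marker sums overlapped in OLs, at 2510 to 3090 CPM in SRF-KO and 2890 to 4540 CPM in control libraries. In OPCs the microglia sums, 0.882 to 1.61 CPM in knockouts and 0 to 0.858 CPM in controls, did not overlap. The part of other cell types in the subunit values below was not tested. Among well counted genes (average log2 CPM of at least 5), SRF-KO OL replicate 4 had 38 of 5069 genes more than 3-fold below every other OL library, where the other 7 had 0 to 3, and SRF-KO OPC replicate 2 had 6 of 6016, where the other 6 OPC libraries had 0. Values without these 2 libraries stand beside the results that rest on them.

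All 9 subunits are protein-coding genes with introns on the mouse genome build GRCm38. Actr3 lies at chr1:125392905-125435727 on the minus strand and Actr2 at chr11:20062304-20112913 on the minus strand. The scaffold genes are Arpc2 (chr1:74236084-74268209, plus strand) and Arpc4 (chr6:113378115-113390448, plus strand). The ARPC1 paralogs are neighbours on the plus strand of chromosome 5, Arpc1a at chr5:145083830-145108761 and Arpc1b at chr5:145114215-145130705, with 5453 bases between them. Arpc3 lies on the same chromosome (chr5:122391878-122414184, plus strand), Arpc5 at chr1:152766542-152775597 and Arpc5l at chr2:39005348-39015877, both on the plus strand. Reads in stretches shared with a gene on the same strand (Arpc5l with Wdr38, Arpc3 with Gm42829, Arpc4 with Ttll3) or, since the libraries carry no strand, on the opposite strand (Arpc5l with Rpl35, Arpc1a with Kpna7, Arpc1b with Pdap1) cannot be assigned to a gene with certainty, whereas Actr2, Actr3, Arpc2 and Arpc5 overlap no other annotated gene.

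SRF binds a sequence called the CArG box, and ETS-family proteins, among them SRF's ternary complex cofactors, bind the core CGGAAG. RefSeq promoter sequences (GRCm38.p6, the 250 bases before the start of transcription) matched 8 of the 9 subunits and were searched on both strands. In these genes no match of 1 motif overlapped a match of the other. A CArG box was in the promoter of 1 of 8 subunits, Arpc4, at positions -250 to -241, the far edge of the window, and in 1.47% of all 32851 promoters. Srf's own promoter holds 2, at -82 to -73 and -62 to -53. CGGAAG was in the promoters of 7 of 8 subunits, all but Arpc5, against 13.6% of all promoters and 24.8% of those of genes tested in OPCs. Actr3 holds 3 copies, from -215, -85 and -7. The promoters of Arpc4 and Actr3, the subunits with the smallest p in OPCs, of Arpc1b, the subunit with the smallest p in OLs, and of Srf for comparison follow 5′ to 3′ on the gene's own strand, with motif matches in capitals (CTTCCG is CGGAAG on the other strand). They lie at chr6:113377863-113378112 (plus strand), chr1:125435728-125435977 (minus), chr5:145114006-145114255 (plus) and chr17:46556163-46556412 (minus). The last bases of the Arpc1b window lie inside the gene as GENCODE draws it. These matches are descriptions of letters, not binding sites.
Arpc4: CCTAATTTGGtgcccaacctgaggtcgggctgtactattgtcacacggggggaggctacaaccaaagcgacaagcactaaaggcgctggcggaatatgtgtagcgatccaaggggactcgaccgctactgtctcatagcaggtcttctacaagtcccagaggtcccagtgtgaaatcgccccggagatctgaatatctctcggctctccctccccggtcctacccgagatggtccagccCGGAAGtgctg
Actr3: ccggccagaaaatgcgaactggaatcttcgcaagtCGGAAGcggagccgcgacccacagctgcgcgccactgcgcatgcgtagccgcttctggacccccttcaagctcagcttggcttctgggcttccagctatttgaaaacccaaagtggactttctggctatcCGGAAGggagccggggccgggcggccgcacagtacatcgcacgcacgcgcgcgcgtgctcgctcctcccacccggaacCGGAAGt
Arpc1b: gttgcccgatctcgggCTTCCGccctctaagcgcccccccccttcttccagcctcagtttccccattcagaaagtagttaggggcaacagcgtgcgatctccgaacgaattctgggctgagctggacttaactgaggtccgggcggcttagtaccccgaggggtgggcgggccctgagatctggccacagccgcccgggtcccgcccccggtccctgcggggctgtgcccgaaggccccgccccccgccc
Srf: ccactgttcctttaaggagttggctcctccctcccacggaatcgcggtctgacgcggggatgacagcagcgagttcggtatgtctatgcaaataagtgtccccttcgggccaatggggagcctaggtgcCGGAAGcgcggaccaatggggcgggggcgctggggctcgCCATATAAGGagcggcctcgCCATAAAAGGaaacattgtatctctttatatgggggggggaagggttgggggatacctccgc

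Transcript levels were compared between subunits in TPM (transcript levels that divide the count by length, scaled to a fixed total) and in OPCs only, where the listed lengths were those of spliced transcripts. The subunits lay within a narrow band. Arpc2 was the most abundant, at 251 ± 2.75 TPM in SRF-KO OPCs (SD, n = 3) and 270 ± 19.1 TPM in control OPCs (SD, n = 4). Arpc1b was the least abundant in control OPCs, at 125 ± 11.9 TPM in SRF-KO OPCs and 130 ± 14.2 TPM in control OPCs. The order in control OPCs by mean was Arpc2, Arpc3, Arpc5, Arpc1a, Actr3, Arpc4, Arpc5l, Actr2 and Arpc1b. Over the 4 control libraries, the neighbours Arpc2 and Arpc3, and Arpc4 and Arpc5l, did not overlap, and all other neighbours in this order did. The subunits filled by paralogs carried more RNA once summed. Arpc1a plus Arpc1b reached 313 ± 14.5 TPM in SRF-KO OPCs and 342 ± 30.6 TPM in control OPCs, and Arpc5 plus Arpc5l reached 343 ± 45.3 TPM in SRF-KO OPCs and 370 ± 26.3 TPM in control OPCs. Actr3b, a paralog of Actr3 outside the 9, had 25.8 to 29.6 TPM in SRF-KO OPCs and 26 to 33.6 TPM in control OPCs, below every value of Actr3.

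**Figure D1:**
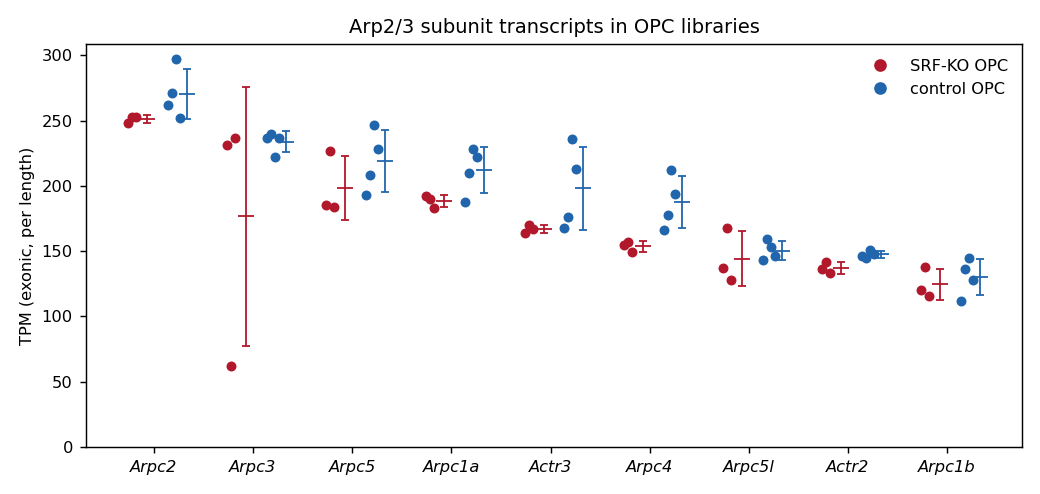
Exonic TPM (vertical axis, linear from 0) of the 9 subunits in the 3 SRF-KO OPC libraries (red) and 4 control OPC libraries (blue), ordered by the control mean. Points are libraries, and the bars beside them give mean and SD. All subunits lie in 1 narrow band apart from Arpc3 in SRF-KO OPC replicate 2 at 61.8 TPM.

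In OPCs the subunits of the SRF-KO libraries were at 86.2% to 102% of their control levels, apart from Arpc3 at 76.6%. Of the 9, 0 passed an adjusted p of 0.05 in edgeR's quasi-likelihood test with Benjamini-Hochberg adjustment over 13271 genes, where 0.0678% of all genes did and Srf and Lima1 were among them. An unadjusted p under 0.05 was reached by 2 of 9, Actr3 and Arpc4, both lower. Of all genes 11.9% reached it, 6.33% with a lower level. DESeq2 called 0 of 9, and of 12017 genes it called 63 higher and 58 lower. Fold changes were below 0 for 8 of 9, where 50.2% of all genes were, with a median log2 fold change of -0.07 for the subunits and 0 for all genes. The 8 include Arpc5l, whose value rounds to 0, and over the other settings and left-out libraries the count ran from 6, without SRF-KO OPC replicate 3, to 9, with limma on TPM. In 3 of 9 subunits (Actr3, Arpc1a and Arpc4) every SRF-KO library lay below every control library in CPM, against 6.25% of all genes, and in 0 of 9 every SRF-KO library lay above every control, against 5.96%. With library totals in place of TMM scaling, Arpc4 alone of the 9 kept this separation, against 5.29% of all genes. The 9 subunits together summed to 1795 to 1937 CPM in SRF-KO OPCs and 1999 to 2028 CPM in control OPCs. The knockout library at 1937 CPM was SRF-KO OPC replicate 2, where Arpc3 was at 30.1 CPM. In every other OPC library Arpc3 was at 96 to 128 CPM, and the separation of the sums rests on this single low value.

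Arpc4, a scaffold subunit, had 242, 248 and 225 CPM in the SRF-KO OPC libraries and 268, 271, 286 and 281 CPM in the control OPC libraries. All 3 knockout values lay below all 4 controls, and this was the subunit with the smallest p, at 86.2% of the control level (95% interval 77% to 96.6%, log2 fold change -0.21, SE 0.074, adjusted p = 0.32 in edgeR's quasi-likelihood test). The ordering also held in TPM, at 155, 157 and 149 TPM in the knockouts against 166, 178, 212 and 194 TPM in the controls, and with library totals in place of TMM scaling. Arpc2, its scaffold partner, had 226, 232 and 225 CPM in SRF-KO OPCs and 250, 243, 235 and 211 CPM in control OPCs. Here the lowest library was a control, and the groups overlapped (log2 fold change -0.04, adjusted p = 0.866 in edgeR's test).

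Of the ARPs, Actr3 had 281, 292 and 269 CPM in SRF-KO OPCs and 303, 298, 350 and 343 CPM in control OPCs. The knockouts were again the 3 lowest libraries, but the nearest values were only 292 CPM in a knockout and 298 CPM in a control. Its level was 86.8% of control (95% interval 76.3% to 98.7%, log2 fold change -0.2, SE 0.085, adjusted p = 0.388 in edgeR's test). In TPM the Actr3 groups overlapped, at 164, 170 and 167 TPM in the knockouts and 168, 176, 236 and 213 TPM in the controls. Actr2 had 349, 371 and 337 CPM in SRF-KO OPCs and 390, 364, 334 and 356 CPM in control OPCs. These groups interleaved (97.7% of control, 95% interval 86.6% to 110%), although in TPM, at 136, 142 and 133 TPM in the knockouts and 146, 145, 151 and 148 TPM in the controls, the knockouts were the 3 lowest. Arpc4 was the 1 subunit of the 9 without overlap on both scales, which start from the same counts. Of all genes, 6.25% lay lower without overlap in CPM and 5.96% higher. In TPM 7.56% lay lower and 3.23% higher, and the share on both scales together was not taken.

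Arpc1a, which docks activators, had 202, 202 and 187 CPM in SRF-KO OPCs and 205, 217, 207 and 215 CPM in control OPCs. The groups were separated by a margin smaller than the spread within either, at 93.5% of control (95% interval 83.4% to 105%, adjusted p = 0.634 in edgeR's test), and they overlapped in TPM. Arpc1b, the other paralog, had 107, 130 and 105 CPM in SRF-KO OPCs and 105, 123, 109 and 113 CPM in control OPCs, with full overlap (log2 fold change 0.02). Arpc5, the tether of ARP2, had 236, 293 and 229 CPM in SRF-KO OPCs against 256, 260, 274 and 269 CPM in control OPCs, and Arpc5l had 112, 138 and 101 CPM against 124, 130, 108 and 109 CPM. SRF-KO OPC replicate 2 was the highest of the 7 libraries for Arpc5, Arpc5l and Arpc1b, and the other 2 knockouts were the lowest for Arpc5.

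Arpc3, which lies beside ARP3 in the complex, had 114, 30.1 and 116 CPM in SRF-KO OPCs and 128, 119, 96 and 107 CPM in control OPCs. A single library, SRF-KO OPC replicate 2, stood 3.19 times below the lowest of the other 6, with 460 counts behind its value, and the other 2 knockouts lay within the control range. The fitted log2 fold change of -0.38 (SE 0.34, adjusted p = 0.685 in edgeR's test) was 0.03 (adjusted p = 0.951) without that library. Without it the calls remained 0 of 9, where 0.0301% of genes were called, and 4 subunits (Actr3, Arpc1a, Arpc4 and Arpc5) had every knockout below every control, against 10.1% of genes with 2 libraries against 4, and 0 had every knockout above every control, against 9.31%. Arpc5 had 87.8% of the control level without it (log2 fold change -0.19, adjusted p = 0.514).

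**Figure D2:**
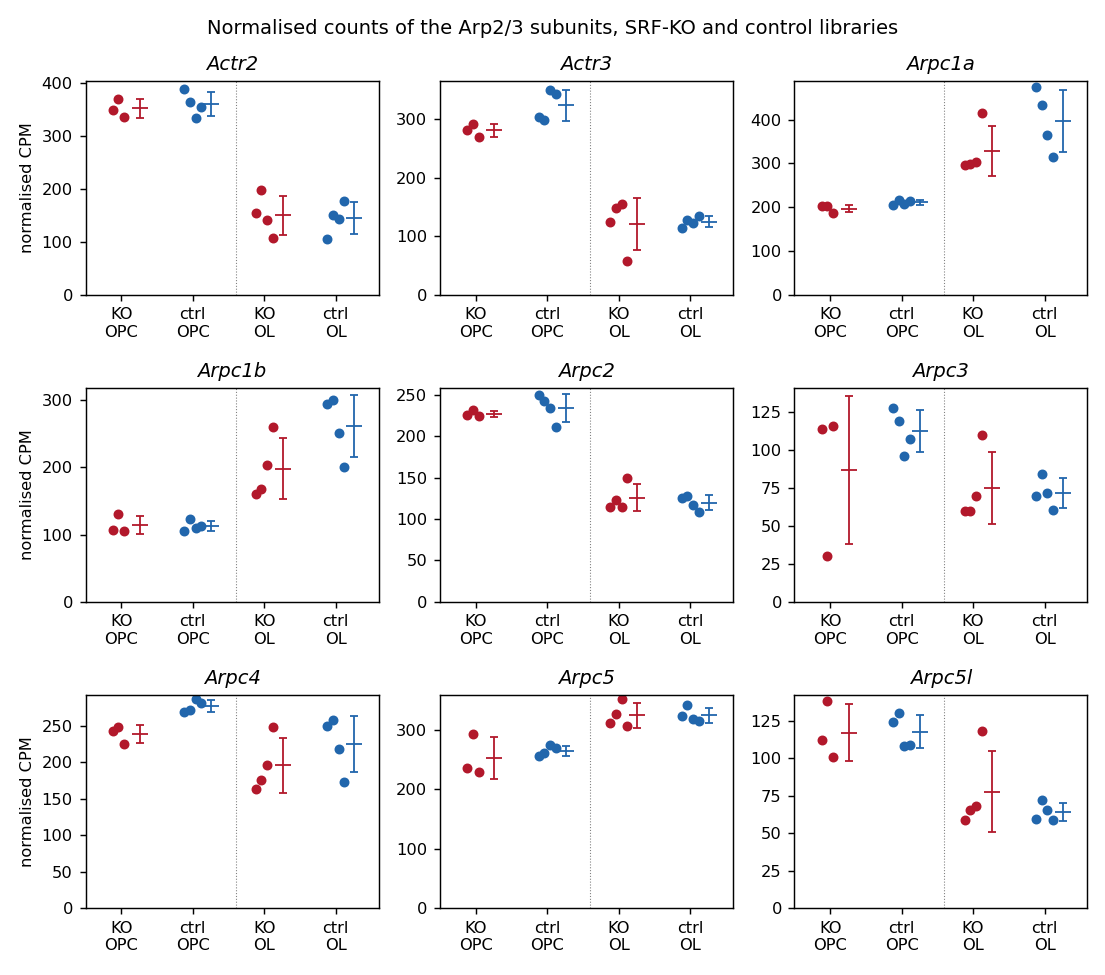
TMM-normalised CPM (vertical axes, linear from 0) of each subunit in SRF-KO (red, KO) and control (blue, ctrl) libraries, with OPCs left and OLs right of the dotted line. Points are libraries and bars give mean and SD. The stages were quantified differently and are not to be compared. Arpc3 in SRF-KO OPC replicate 2 stands at 30.1 CPM, and Actr3 in SRF-KO OL replicate 4 at 58.3 CPM.

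In OLs, with all 8 libraries, the subunits showed no shared direction. Of the 9, 0 passed an adjusted p of 0.05 in edgeR's quasi-likelihood test over 15193 genes, where 0.296% of all genes did, and 0 had an unadjusted p under 0.05, where 11.6% did and 5.73% were lower. DESeq2 also called 0 of 9, and of 16153 genes it called 88 higher and 201 lower. Fold changes were below 0 for 4 of 9 subunits and for 46.1% of all genes, and the median log2 fold change was 0 for the subunits and 0.02 for all genes. No subunit had groups without overlap, where 3.9% of all genes were lower and 4.19% higher without overlap. For 90% of the genes with 1 transcript and introns, the OL files list the length of the whole gene body. From this it is inferred that intronic reads are included in these counts. Among the subunits, which have several transcripts, Actr2 and Arpc5 were listed at their full span. Arpc1b was listed at 2038 bases in control OL replicate 1, of a span of 16491 bases. The intervals were wider than in OPCs, with SEs of 0.14 to 0.25 against 0.074 to 0.12 for the subunits other than Arpc3 in OPCs.

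The ARPC1 paralogs and Arpc4 had the 3 lowest fold changes in OLs. Arpc1b had 160, 168, 204 and 260 CPM in SRF-KO OLs and 294, 301, 252 and 200 CPM in control OLs. Replicates 3 and 4 of the knockouts lay inside the control range, and the level was 75.6% of control (95% interval 56.1% to 102%, log2 fold change -0.4, SE 0.2, adjusted p = 0.474 in edgeR's test). Arpc1a had 296, 299, 303 and 415 CPM in SRF-KO OLs and 474, 434, 366 and 314 CPM in control OLs. Arpc4 had 163, 176, 196 and 248 CPM in SRF-KO OLs and 250, 258, 218 and 173 CPM in control OLs. In all 3 genes replicate 4 of the knockouts was the highest knockout library and replicate 4 of the controls the lowest control library, and the log2 fold changes were -0.28 for Arpc1a and -0.2 for Arpc4 (adjusted p = 0.625 and 0.741 in edgeR's test).

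Without SRF-KO OL replicate 4, Arpc1b fell to 66.5% of the control level (log2 fold change -0.59, SE 0.14, 95% interval -0.9 to -0.28, adjusted p = 0.0383 in edgeR's quasi-likelihood test). It was then the 1 subunit called, and 4.12% of all genes were called in that fit. The library left out had the most Srf of the SRF-KO OLs, at 4.34 CPM, and the part of this was not tested. Renormalised without that library, Arpc1b stood at 160, 166 and 198 CPM in SRF-KO OLs and 291, 296, 255 and 204 CPM in control OLs. Arpc1a stood at 295, 295 and 294 CPM in SRF-KO OLs and 469, 428, 371 and 321 CPM in control OLs. These 2 subunits had every remaining knockout below every control, against 9.39% of all genes, and Arpc1a did not pass the threshold (log2 fold change -0.43, adjusted p = 0.0894). Arpc4 was at -0.36 (adjusted p = 0.133) with overlapping groups. The call of Arpc1b also depended on scaling. With library totals in place of TMM and the same library left out, its log2 fold change was -0.3 (adjusted p = 0.134), Arpc1a was at -0.15, Arpc4 at -0.08, and the median of all genes was 0.25, against 0 with TMM. All 3 lay below that shifted median, but setting values against it repeats in effect what TMM does. It therefore cannot show that the falls hold under either scaling. With all libraries and library totals, the median of all genes was 0.24, Arpc1b was at -0.17 and Arpc4 at 0.03.

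The remaining subunits in OLs overlapped widely. Actr3 had 124, 149, 155 and 58.3 CPM in SRF-KO OLs and 114, 128, 122 and 135 CPM in control OLs. SRF-KO OL replicate 4 was 1.96 times below the lowest other library, while replicates 2 and 3 of the knockouts were the highest, and the fitted log2 fold change of -0.04 was 0.16 without replicate 4. Actr2, its partner, had 154, 198, 142 and 108 CPM in SRF-KO OLs and 105, 151, 144 and 178 CPM in control OLs, with the groups interleaved. Arpc2 had 115, 123, 115 and 150 CPM in SRF-KO OLs and 126, 128, 117 and 108 CPM in control OLs.

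Arpc5 varied least of the 9 in OLs, at 311, 327, 352 and 306 CPM in the knockouts and 323, 341, 317 and 314 CPM in the controls (100% of control, 95% interval 81.5% to 123%). Arpc5l had 59, 65.7, 68.1 and 118 CPM in SRF-KO OLs and 59.6, 72, 65.5 and 59.1 CPM in control OLs. The log2 fold change of Arpc5l, 0.27 (SE 0.21, adjusted p = 0.677 in edgeR's test), came to -0.02 without replicate 4 of the knockouts, the library at 118 CPM. Arpc3 had 59.7, 60, 69.9 and 110 CPM in SRF-KO OLs and 69.7, 84.5, 71.6 and 60.5 CPM in control OLs. The same library was the highest of the 8 for Arpc2, Arpc3 and Arpc5l and the lowest for Actr3 and Arpc5.

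**Figure D3:**
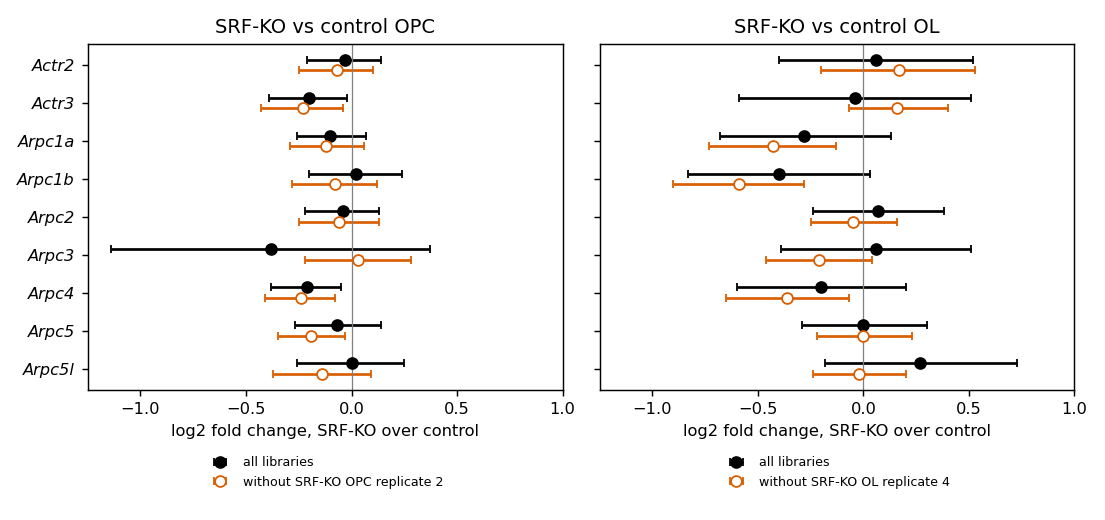
Log2 fold change of SRF-KO over control (horizontal axis) for each subunit in OPCs (left) and OLs (right), from edgeR with TMM scaling. Filled points use all libraries, open points leave out SRF-KO OPC replicate 2 (left) or SRF-KO OL replicate 4 (right), and bars are 95% intervals of the fit. Arpc3 in OPCs moves between -0.38 and 0.03, and Arpc1b in OLs between -0.4 and -0.59.

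The knockout effect was compared between the stages as an interaction in 1 edgeR model over all 15 libraries. The stages also differed in virus, in control vector and in how much Srf remained, and these cannot be told apart from stage. Srf itself was called, with a difference of 3.68 (SE 0.46, adjusted p = 0.00465 in that model). For 0 of 9 subunits did the effect in OLs differ from that in OPCs at an adjusted p of 0.05, where 0.112% of 16135 genes did, and by an unadjusted p under 0.05 also 0 of 9, where 9.25% of genes did and 4.65% had a negative difference. Differences were below 0 for 3 of 9 subunits and for 49.5% of all genes. DESeq2 called 0 of 9 too, and of 16392 genes it called 67 with a positive and 99 with a negative difference. The smallest p was that of Arpc1b, whose effect was 0.45 lower in OLs on the log2 scale (difference -0.45, SE 0.23, 95% interval -0.93 to 0.04, adjusted p = 0.588). Arpc3 followed at 0.43 (95% interval -0.45 to 1.32, adjusted p = 0.817), and its difference was 0.03 without SRF-KO OPC replicate 2 (adjusted p = 1). The Arpc1b difference was -0.32 without that library (adjusted p = 0.774) and -0.6 without SRF-KO OL replicate 4 (adjusted p = 0.134). Arpc4 had the smallest difference, -0.01 (95% interval -0.44 to 0.42). The median difference was 0.08 for the subunits and 0 for all genes. A ratio of ratios cancels a constant difference in how a gene was counted between the stages, but not a change in the share of intronic reads.

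The paralog balance was followed within each library as the log2 ratio of expected counts, which needs no scaling between libraries. Arpc1b over Arpc1a was -0.92, -0.64 and -0.83 in SRF-KO OPCs and -0.96, -0.82, -0.93 and -0.93 in control OPCs, so that Arpc1a had the higher count in every library. The means were -0.8 ± 0.14 (SD, n = 3) in SRF-KO OPCs and -0.91 ± 0.064 (SD, n = 4) in control OPCs, and the groups overlapped (difference 0.11, two-sided exact permutation p = 0.229). Without SRF-KO OPC replicate 2, the library at -0.64, the difference was 0.04. In OLs the ratio was -0.89, -0.83, -0.57 and -0.67 in the knockouts and -0.69, -0.53, -0.54 and -0.65 in the controls. The 2 lowest of these 8 libraries were knockouts, and the difference of -0.14 had a two-sided exact permutation p of 0.143.

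Arpc5l over Arpc5 was -1.08, -1.09 and -1.17 in SRF-KO OPCs and -1.05, -1, -1.34 and -1.31 in control OPCs. The knockouts lay inside the control range (difference 0.06, two-sided exact permutation p = 0.571). In OLs it was -2.4, -2.32, -2.37 and -1.37 in the knockouts and -2.44, -2.24, -2.27 and -2.41 in the controls. Only SRF-KO OL replicate 4 left the common range, and the difference of 0.23 (two-sided exact permutation p = 0.657) was -0.02 without it. Adjusted over the 4 balance tests, the p-values were 0.458 for both ARPC1 comparisons and 0.657 for both ARPC5 comparisons, and the smallest p that either design allows is 0.0286. Per length, Arpc1b made up 39.8 ± 2.02% of the ARPC1 transcripts in SRF-KO OPCs and 38.1 ± 1.34% in control OPCs, and Arpc5l 42 ± 0.929% of the ARPC5 transcripts in SRF-KO OPCs and 40.8 ± 2.58% in control OPCs (SD, n = 3 and 4). In studies of the human proteins, complexes with ARPC1B and ARPC5L are known to promote actin assembly more strongly than those with ARPC1A and ARPC5.

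**Figure D4:**
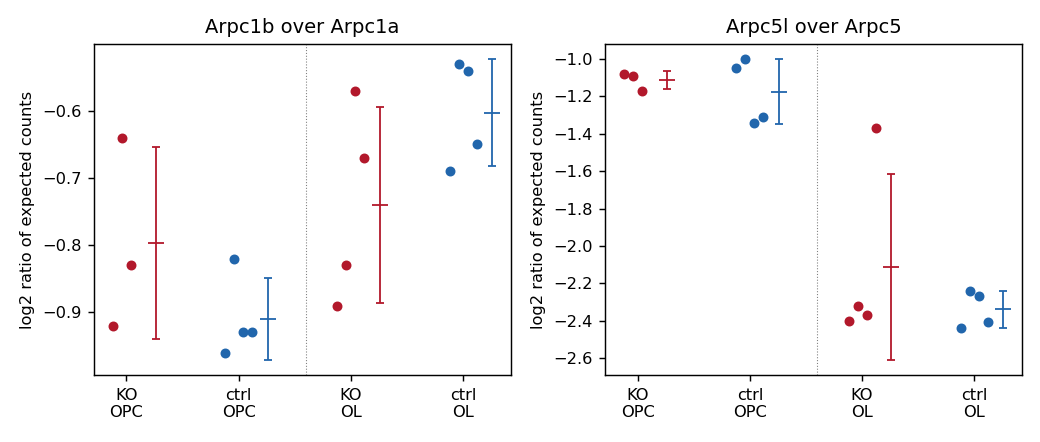
Log2 ratio of expected counts (vertical axes) of Arpc1b over Arpc1a (left) and Arpc5l over Arpc5 (right) in SRF-KO (red, KO) and control (blue, ctrl) libraries of OPCs and, right of the dotted lines, OLs. Points are libraries and bars give mean and SD. The stages were quantified differently and are not to be compared. SRF-KO OL replicate 4 stands at -1.37 in the right panel, and SRF-KO and control otherwise overlap within each stage.

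Over the 36 pairs of subunits, the median Pearson correlation of log2 CPM was 0.16 over the 7 OPC libraries (range -0.74 to 0.91) and 0.15 over the 8 OL libraries (range -0.85 to 0.96), as descriptions that share libraries, depth and group differences. Without SRF-KO OPC replicate 2 the OPC median was 0.4, and without SRF-KO OL replicate 4 the OL median was 0.4. In OPCs the most alike pairs were Actr3 with Arpc4, at 0.91, and Arpc1a with Arpc4, at 0.85, each the same without SRF-KO OPC replicate 2, when Arpc4 with Arpc5 was the most alike pair at 0.99. In OLs Arpc1a, Arpc1b and Arpc4 went together, at 0.94 to 0.96, and at 0.94 to 0.97 without SRF-KO OL replicate 4. Arpc3 with Arpc5l was at 0.91 and at 0.73 without that library, and Actr3 with Arpc5l was at -0.85 and at 0.41 without it. Among 4035 other well counted genes, those most like the mean of the 9 subunits over the 15 libraries, each gene centred within its stage, were Fkbp4 (a co-chaperone, Pearson 0.86, Spearman 0.88), Ube2s (a ubiquitin-conjugating enzyme, 0.85 and 0.85), Manf (a secreted endoplasmic reticulum stress protein, 0.83 and 0.87), Tcf19 (0.82 and 0.85) and Trir (0.82 and 0.88). As the highest of 4035 correlations over all libraries, these are descriptions without a test. The mean carries the differences between groups and the low Arpc3 value of SRF-KO OPC replicate 2.

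**Figure D5:**
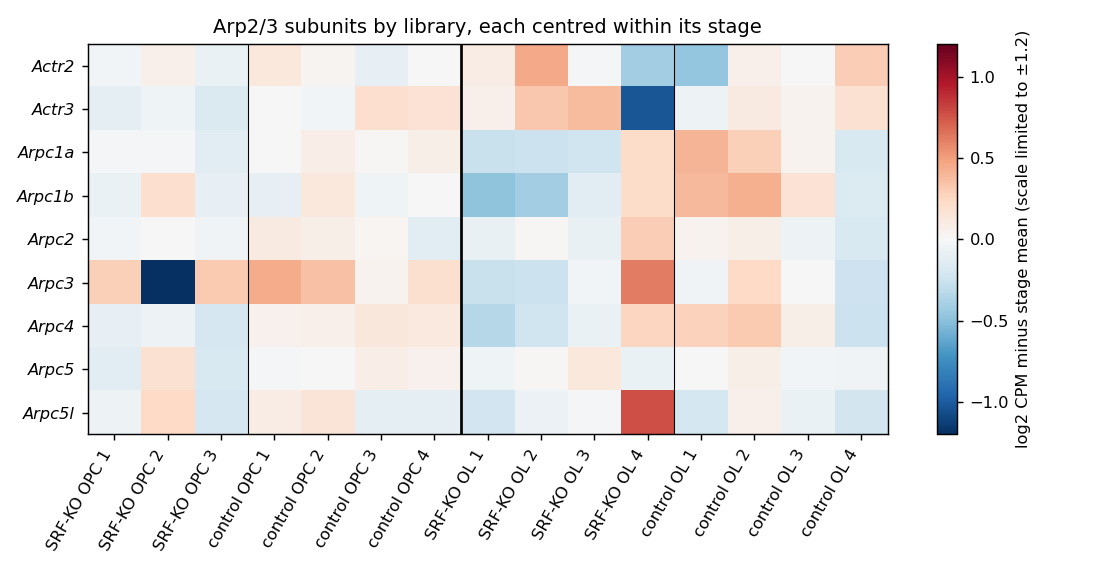
Log2 CPM of each subunit (rows) in each library (columns) after subtraction of the gene's mean over all libraries of that stage, with SRF-KO left of control within OPCs (left) and OLs (right). Red is above and blue below the stage mean, and the colour scale is limited to ±1.2. The darkest cell is Arpc3 in SRF-KO OPC replicate 2, and the column of SRF-KO OL replicate 4 holds both Actr3 far below and Arpc5l far above their means.

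The genes that act on the complex gave no calls either, in fits that called 0.0678% of all genes in OPCs and 0.296% in OLs. At such shares, 0 calls in a list of this size is no result about its genes. Of 25 activator genes (WASP and WAVE family members and the other subunits of their complexes), 20 were tested in OPCs and 22 in OLs, and 0 passed an adjusted p of 0.05 in either stage, with medians of -0.04 in OPCs and 0.01 in OLs on the log2 scale. The smallest p in OPCs was that of Wasf1, which encodes the activator WAVE1, at 58.7 ± 8.85 CPM in the knockouts (SD, n = 3) and 75.8 ± 1.54 CPM in the controls (SD, n = 4), without overlap (log2 fold change -0.37, adjusted p = 0.263 in edgeR's test). In OLs the smallest were Whamm (0.39, adjusted p = 0.424) and Washc1 (-0.5, adjusted p = 0.427), a subunit of the activator complex on endosomes. Of 13 inhibitors and debranchers, 11 were tested in each stage and 0 passed, with medians of -0.03 in OPCs and -0.02 in OLs. Dstn, an actin-severing protein, was at 0.21 (adjusted p = 0.317) and Coro1c, a coronin, at -0.21 (adjusted p = 0.337) in OPCs. Cfl1, the severing protein cofilin, averaged 1140 ± 160 CPM in SRF-KO OLs and 1940 ± 556 CPM in control OLs (SD, n = 4 each), and the groups overlapped (log2 fold change -0.76, adjusted p = 0.229 in edgeR's test).

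All 10 upstream GTPases and adaptors were tested in both stages and 0 passed, with medians of 0.06 in OPCs and 0 in OLs. Of all genes 0.0678% passed in OPCs and 0.296% in OLs, so the counts of 0 here are no result about these lists. Their smallest p-values belonged to the membrane-curving adaptors Fnbp1 (0.37, adjusted p = 0.299) and Fnbp1l (-0.39, adjusted p = 0.41) in OPCs and to the adaptor Nck1 (0.37, adjusted p = 0.362) and the GTPase Rac1 (-0.33, adjusted p = 0.578) in OLs, by edgeR's test. Of 8 genes for capping of filament ends, 0 passed in either stage, with medians of 0.09 in OPCs and -0.08 in OLs. Here Eps8 (0.18, adjusted p = 0.417) and Twf2 (0.2, adjusted p = 0.481) had the smallest p in OPCs, and Carmil1 (-0.52, adjusted p = 0.311) and Capg (0.5, adjusted p = 0.443) in OLs. The 8 tested of 9 other actin-related proteins, most of them in dynactin or chromatin complexes, also gave 0 calls, with medians of -0.02 in OPCs and -0.04 in OLs. Among them Actl6a (-0.13, adjusted p = 0.52) and Actr5 (-0.35, adjusted p = 0.579) had the smallest p in OPCs and Actr6 (0.28, adjusted p = 0.471) and Actr1a (-0.33, adjusted p = 0.558) in OLs.

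Actb encodes a cytoplasmic actin, the protein that the complex assembles into branches. Actb averaged 2980 ± 419 CPM in SRF-KO OPCs (SD, n = 3) and 3950 ± 241 CPM in control OPCs (SD, n = 4). It averaged 3560 ± 971 CPM in SRF-KO OLs and 7770 ± 2030 CPM in control OLs (SD, n = 4 each). The Actb groups did not overlap in either stage, with log2 fold changes of -0.4 (SE 0.092, adjusted p = 0.187) in OPCs and -1.13 (SE 0.27, adjusted p = 0.154) in OLs by edgeR's test, so that Actb did not pass the threshold either. Of 15 genes known as targets of SRF with its MRTF cofactors, the targeted Srf included, 13 were tested in OPCs. By edgeR's test 2 fell, where 0.0678% of all genes were called. They were Srf (-5.16, adjusted p = 0.000569) and Lima1, an actin-bundling LIM protein (-0.65, adjusted p = 0.03). Of the 13, 12 had fold changes below 0, with a median of -0.29, where 50.2% of all genes were below 0. In OLs all 15 were tested, and the 1 that fell was the targeted Srf itself (-1.45, adjusted p = 0.0224 in edgeR's test). In that fit 0.296% of all genes were called. Of the 15, 11 were below 0 and 4 above, with a median of -0.21, where 46.1% of all genes were below 0. That list was drawn up with results of these data known, so its direction is no independent evidence.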

How the data were processed

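Mouse OPC and OL cultures were sequenced as single 63 base Smart-seq2 reads, which carry no strand, according to protocols in the labels. Sample titles gave the groups. The treatment tag of the SRF-KO OLs closes with the word control, and the design text names mesenchymal stem cells and Olig2-Cre, against the other labels. The authors used bcl2fastq, STAR and RSEM with the builds GRCm38 and Rnor_6.0, per the submitters' processing notes, without versions. The deposited expected counts are the authors' RSEM estimates, and the deposited TPM divide them by effective length. Among 8995 genes with 1 transcript and introns, the listed length equalled the spliced length in 89.8% in OPC files and the genomic span in 90% in OL files, so levels were compared between genes in OPCs only and never between stages.

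The rounded values entered edgeR 4.0.16 under R 4.3.3 (filterByExpr, TMM, quasi-likelihood F-test, Benjamini-Hochberg over all tested genes, threshold 0.05). SEs and 95% intervals derive from the F statistic. Paralog balances used a pseudocount of 0.5 and exact permutation, log2 CPM levels a prior count of 2. Alternatives were library totals, DESeq2 1.42.0, no filter, limma 3.58.1 on log2(TPM + 1), a replicate block, leaving out each library, and, added after seeing the data, TPM for overlap and library totals combined with leaving out SRF-KO OL replicate 4. The fits were tested on simulated counts.

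Members, lists and tests were chosen with earlier results of these data known. Named are the 9 subunits, Srf, Actb, list genes past the threshold or else at most 2 with the smallest p, and the 5 genes most like the subunits. Prpf19, Rraga and Tubb2b were chosen after their values were seen, and some genes of that kind are not reported here. Symbols matched 45143 of 45706 gene IDs, coordinates are GENCODE M21. Nothing in the labels states separate animals per library, so p-values measure only the spread between these samples. No replicate columns were identical.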

Additional observations from a re-analysis of the deposited data

Results flagged for a closer look

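Among 36 groups of 4 libraries examined (each subunit, their sum and both paralog balances in the 3 groups of that size), 3 values stood apart from their group by a gap test that chance passes in about 1 in 20 groups. All 3 come from SRF-KO OL replicate 4. Arpc1a was at 415 CPM there, with the nearest other SRF-KO OL library at 303 CPM (gap over range 0.94). Arpc5l was at 118 CPM there, with the nearest at 68.1 CPM (0.847). The log2 ratio of Arpc5l over Arpc5 was -1.37 there, with the nearest at -2.32 (0.923). This library had 5133146 counts and the highest mitochondrial share of the OL libraries, 14.2%. It also had the most Srf of the SRF-KO OLs, at 4.34 CPM against 3.05, 2.71 and 2.06 CPM in replicates 1 to 3. The part of any of these in the flagged values was not tested.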

How the results depend on the processing

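No subunit passed the threshold in OPCs or in the interaction under any alternative run. In OLs only Arpc1b did, without SRF-KO OL replicate 4 (1 of 9 called, where 4.12% of all genes were). Leaving out each library in turn gave 0 to 1 called subunits in OLs. With library totals, 1 subunit in place of 3 (Arpc4) lay lower without overlap in OPCs, where 5.29% of all genes did, and 1 (Arpc2) lay higher without overlap in OLs, where 12.1% of all genes did. In TPM, Actr2 and Arpc4 lay lower without overlap in OPCs, where 7.56% of all genes did. Without SRF-KO OL replicate 4, 2 subunits lay lower without overlap in OLs, where 9.39% of all genes did. The median of all genes in OLs moved by TMM or totals between 0.02 and 0.24, and that of the subunits to 0.22 with totals.

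Signs turned, all without a call and with untested cause, as follows. Library totals gave 0.01 for Arpc5l in OPCs, 0.18 for Actr3 and 0.03 for Arpc4 in OLs, and 0.04 for Arpc1a and 0.23 for Arpc4 in the interaction. With SRF-KO OL replicate 4 also left out, Actr3 was at 0.42. Limma on TPM gave -0.06 for Arpc1b in OPCs, 0.18 for Actr3, -0.24 for Arpc2 and 0.1 for Arpc4 in OLs, and 0.16 for Arpc1a, -0.13 for Arpc2 and 0.38 for Arpc4 in the interaction, where the subunits' median moved to 0.41. Arpc5 in OLs was at -0.02 with DESeq2 and -0.01 without a filter.

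Leaving out 1 library at a time turned the sign over these ranges. In OPCs they were -0.07 to 0.01 for Actr2, -0.08 to 0.07 for Arpc1b, -0.66 to 0.03 for Arpc3, -0.19 to 0 for Arpc5 and -0.14 to 0.09 for Arpc5l. In OLs they were -0.1 to 0.18 for Actr2, -0.17 to 0.16 for Actr3, -0.05 to 0.11 for Arpc2, -0.21 to 0.15 for Arpc3, -0.04 to 0.03 for Arpc5 and -0.02 to 0.39 for Arpc5l. In the interaction they were -0.09 to 0.22 for Actr2, -0.13 to 0.06 for Arpc4, -0.03 to 0.2 for Arpc5 and -0.01 to 0.42 for Arpc5l. The balance of Arpc5l over Arpc5 in OLs ranged between -0.02 and 0.32.

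Replicate numbers showed no visible pairing. Same-numbered libraries deviated with correlations of -0.02 to 0.05 in OPCs and -0.28 to 0.03 in OLs. Differently numbered ones ran from -0.05 to 0.05 and from -0.23 to 0.28. With so few libraries per group, whose deviations depend on each other, this cannot show that the cultures were unpaired. With the replicate block, 0 of 9 subunits were called in each comparison, and the calls over all genes were 1 higher and 1 lower in OPCs, 3 higher and 2 lower in OLs, and 0 in the interaction. Precision was set by SEs of 0.074 to 0.34 in OPCs and 0.14 to 0.25 in OLs on the log2 scale, with 4303739 counts in the shallowest library.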

Other observations

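In SRF-KO OPC replicate 2, Arpc3 was among 6 well counted genes that lay more than 3-fold below every other OPC library. Among the others were Prpf19 at 15.3 CPM (4.35 times below the lowest other library), Rraga at 34.6 CPM (4.2 times) and Tubb2b at 192 CPM (3.22 times). In the other 6 OPC libraries Prpf19 stayed at 66.6 to 78.4 CPM, Rraga at 145 to 170 CPM and Arpc3 at 96 to 128 CPM.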
